A study of Mus musculus with 10 samples.

Results

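The genes described are 10 members of the Wnt signalling system in sorted osteoblastic lineage cells: the ligands Wnt4, Wnt5a, Wnt10b and Wnt16, the Frizzled receptors Fzd1, Fzd2 and Fzd8, the co-receptors Lrp5 and Lrp6, and the receptor tyrosine kinase Ror2. They were chosen by gene symbol, and all 10 were measured, out of 19938 genes tested on the arrays. The BA group was 5 Scl-tTA::TRE-BCR/ABL mice, in which a transactivator under the Scl promoter, active in blood-forming cells, switches on BCR/ABL once doxycycline is gone, and which develop a myeloproliferative neoplasm. The control group was 5 age-matched mice labelled only as control, whose alleles the labels do not state. Both groups were C57BL/6 mice taken off doxycycline at 5 weeks of age, with bones collected 5 to 6 weeks later. Cells freed from crushed bone by collagenase were sorted with antibodies to blood lineage antigens and to CD45, CD51, CD31 and Sca-1. RNA of 500 to 2300 cells per mouse was amplified and hybridised to an Affymetrix Gene ST 1.0 array, 1 array per mouse.

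Wnt proteins are lipid-modified ligands that bind Frizzled receptors on the cell surface. When Lrp5 or Lrp6 joins the complex, beta-catenin is spared from degradation and switches on target genes. Other Wnts, with Wnt5a as the best known, signal through Ror2 and related receptors without beta-catenin. In bone, the beta-catenin branch favours osteoblast formation, and loss or gain of LRP5 function in humans lowers or raises bone mass.

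None of the 10 genes differed between BA and control cells beyond the spread between mice. At an adjusted p below 0.05 (limma, adjusted over all genes) 0 of the 10 were called, where 0.00502% of all genes were, a single gene. At an unadjusted p below 0.05 the count was also 0 of 10, against 9.4% of all genes. The arrays of the groups overlapped for all 10 genes, whereas they were fully apart for 1.67% of all genes. The difference, BA minus control on the log2 scale, was below 0 for 8 of the 10 genes and for 62.1% of all genes, and its median was -0.06 for the 10 and -0.06 for all genes. The 95% interval of each of the 10 differences held 0.

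The values below are the authors' normalized log2 values per array, so a difference of 1 is a factor of 2. They carry no detection call, and a probe set's level depends on its probes, so levels were compared between mice and not between genes. In bulk sorted cells, fewer cells of a type and less RNA per cell cannot be told apart.

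**Figure D1:**
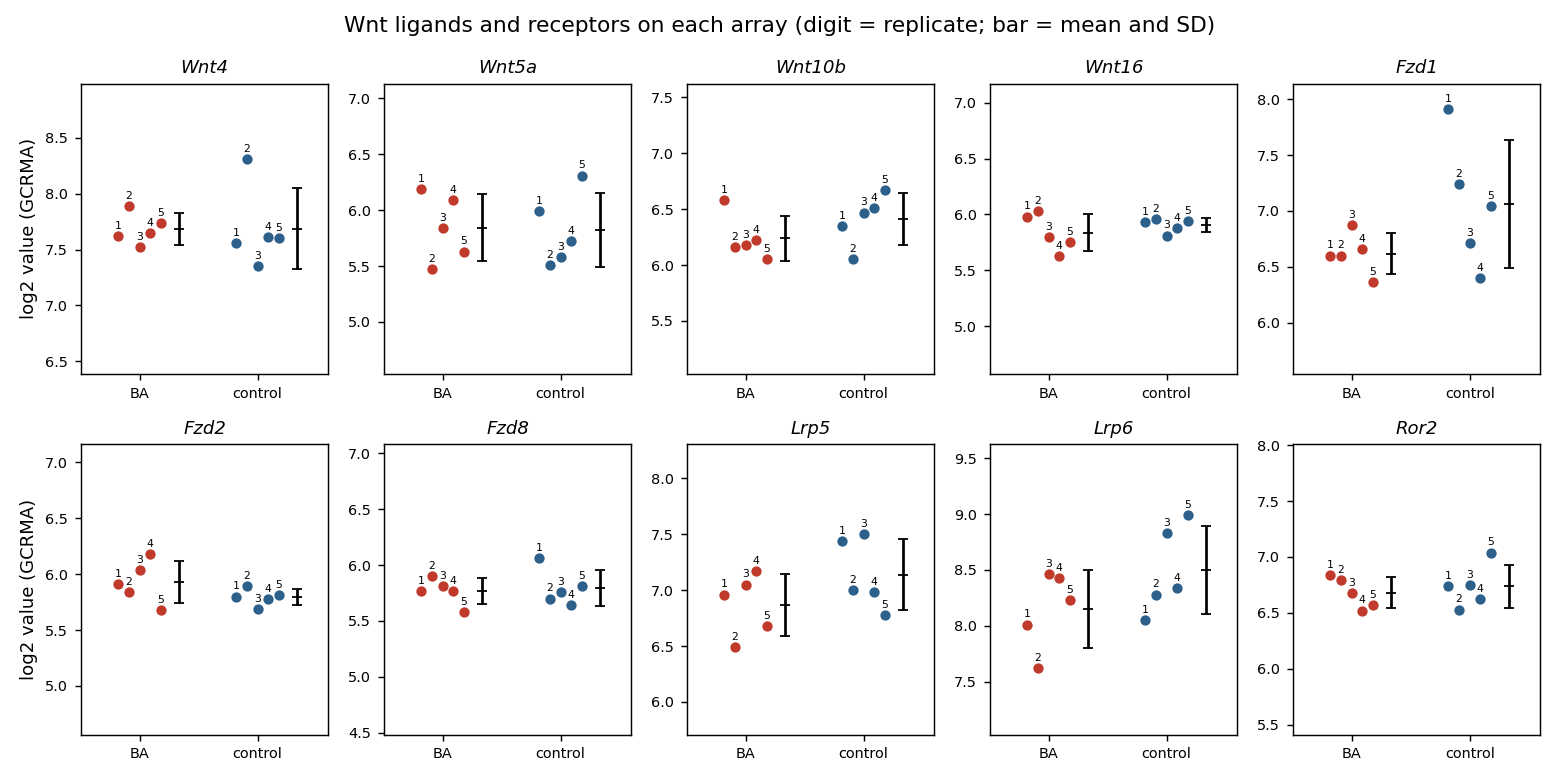
Log2 value of each gene (vertical axis, the same span of 2.6 log2 units in every panel) on the 5 BA and the 5 control arrays, with the replicate number at each point and the group mean and SD beside the points. The BA and control points overlap in all 10 panels, and the widest scatter is that of Fzd1 in the control mice, from 6.40 to 7.91.

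Among the ligands, Wnt4 (probe set 10509273), which in bone is mainly tied to signalling without beta-catenin, stood at 7.62, 7.89, 7.52, 7.65 and 7.74 in BA mice 1 to 5. In control mice 1 to 5 it stood at 7.56, 8.31, 7.35, 7.61 and 7.60. All 5 BA values lay inside the control range, and control mouse 2 stood above every other array. The means were 7.68 ± 0.14 in BA and 7.69 ± 0.36 in control cells (SD, n = 5 each), a difference of -0.002 ± 0.17 (SE, adjusted p = 0.996, limma). Without control mouse 2 the difference was 0.15. A second Wnt4 probe set, 10509267, ranged from 5.98 to 6.67 in BA and from 6.02 to 6.29 in control cells and differed by 0.09. Neither probe set thus separated the groups, and they differed in sign.

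Wnt5a (probe set 10413482), the classical ligand of Ror2, stood at 6.19, 5.47, 5.84, 6.09 and 5.63 in BA mice. Its control values were 5.99, 5.51, 5.58, 5.72 and 6.31. Both groups spread over a similar span, 0.72 in BA and 0.80 in control cells. The means of 5.84 ± 0.30 and 5.82 ± 0.33 (SD, n = 5 each) in BA and control cells gave a difference of 0.02 ± 0.19 (SE, adjusted p = 0.969, limma).

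Wnt10b (probe set 10432267), a beta-catenin ligand that steers marrow stromal cells towards bone and away from fat, stood at 6.58, 6.16, 6.18, 6.22 and 6.05 in BA mice. In control mice it stood at 6.35, 6.05, 6.47, 6.51 and 6.67. Of the 5 BA arrays, 4 lay below the control median, and BA mouse 1 lay above it. The difference was -0.17 ± 0.14 (SE), with a 95% interval from -0.48 to 0.14 (adjusted p = 0.646, limma).

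Wnt16 (probe set 10536658), a ligand that osteoblasts make and that protects cortical bone in mice, had values of 5.98, 6.03, 5.80, 5.63 and 5.75 in BA mice and of 5.93, 5.96, 5.81, 5.88 and 5.94 in control mice. The control arrays lay within 0.15 of each other and the BA arrays within 0.40, on both sides of them. The difference was -0.07 ± 0.10 (SE, adjusted p = 0.799, limma).

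Among the receptors, Fzd1 (probe set 10527936), a seven-pass Frizzled receptor that can act with Lrp5 and Lrp6, had the difference furthest from 0 of the 10 genes. It stood at 6.60, 6.60, 6.87, 6.66 and 6.36 in BA mice and at 7.91, 7.24, 6.71, 6.40 and 7.04 in control mice. All 5 BA arrays lay below the control median of 7.04, but control mice 3 and 4 lay within the BA range. The mean was 6.62 ± 0.18 in BA and 7.06 ± 0.57 in control cells (SD, n = 5 each), a difference of -0.44 ± 0.25 (SE) that did not pass (adjusted p = 0.556, limma). A two-sided exact permutation test of this difference over all ways to divide the arrays into groups of 5 gave p = 0.127, where 0.00794 is the smallest it can give. Control mouse 1 carried much of the difference, which was -0.23 without that mouse (unadjusted p = 0.231, adjusted p = 0.690, limma). Without control mouse 4 it was -0.61, with an unadjusted p of 0.0224 and an adjusted p of 0.438 (limma).

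The control mice highest in Fzd1, mice 1 and 2, were also highest in Cxcl12, the chemokine of stromal niche cells, at 11.80 and 11.75. BA mouse 5 was lowest in both genes, with Cxcl12 at 7.74. Over the 9 stromal progenitor and adipogenic markers, each with a negative difference, the mean level ranged from 6.53 to 7.91 in BA and from 7.39 to 9.31 in control cells, with control mice 1 and 2 at 9.27 and 9.31. The other control arrays followed that order only in part. Control mouse 4 was low in both, with a marker mean of 7.44, below BA mice 1, 3 and 4, and the lowest Fzd1 value of the controls, 6.40. Control mouse 5 had the lowest marker mean of the controls, 7.39, below BA mice 1, 3 and 4, but its Fzd1 value of 7.04 lay above every BA array. Control mouse 3 had a marker mean of 8.52, above every BA array, and its Fzd1 value of 6.71 lay inside the BA range. The part of these cells in the Fzd1 values was not tested.

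Fzd2 (probe set 10381603), a close relative of Fzd1 that also binds Wnt5a, was on the other side of 0. Its values were 5.91, 5.84, 6.04, 6.18 and 5.68 in BA mice, against 5.80, 5.89, 5.69, 5.78 and 5.81 in control mice. In BA cells 4 of 5 arrays lay above the control median, while BA mouse 5 was the lowest of all 10 arrays. The difference was 0.14 ± 0.11 (SE), with a 95% interval from -0.10 to 0.37 (adjusted p = 0.636, limma).

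Fzd8 (probe set 10453738), a receptor of the beta-catenin branch, stood at 5.77, 5.90, 5.81, 5.77 and 5.58 in BA mice and at 6.06, 5.70, 5.76, 5.64 and 5.81 in control mice. The BA values lay within 0.32 of each other. BA mouse 5, at 5.58, lay below every control array, and the other BA arrays lay inside the control range. The difference was -0.03 ± 0.10 (SE, adjusted p = 0.927, limma).

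The co-receptors Lrp5 and Lrp6 had the next largest differences after Fzd1, both below 0. Lrp5 (probe set 10464504) stood at 6.96, 6.49, 7.05, 7.17 and 6.68 in BA mice and at 7.44, 7.00, 7.50, 6.98 and 6.78 in control mice. Control mice 1 and 3 lay above all BA mice and BA mice 2 and 5 below all control mice, and the other arrays were mixed. Its difference was -0.27 ± 0.18 (SE), with a 95% interval from -0.67 to 0.13 (adjusted p = 0.593, limma).

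Lrp6 (probe set 10548701), which acts in place of or beside Lrp5, stood at 8.01, 7.62, 8.46, 8.43 and 8.23 in BA mice. Its control values were 8.05, 8.28, 8.83, 8.34 and 8.99. Control mice 3 and 5 lay above all BA mice and BA mice 1 and 2 below all control mice, with the other arrays mixed. The means of 8.15 ± 0.35 in BA and 8.50 ± 0.40 in control cells (SD, n = 5 each) differed by -0.35 ± 0.22 (SE), with a 95% interval from -0.83 to 0.14 (adjusted p = 0.584, limma). The order of the mice was partly shared by the co-receptors: control mouse 3 was above all BA mice and BA mouse 2 the lowest array in both, but control mouse 5 was the highest array in Lrp6 and the lowest control in Lrp5.

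Ror2 (probe set 10409282), the tyrosine kinase that binds Wnt5a and takes part in skeletal growth, had values of 6.84, 6.79, 6.68, 6.52 and 6.57 in BA mice and of 6.74, 6.53, 6.75, 6.62 and 7.04 in control mice. Control mouse 5 stood above the rest, and the other 9 arrays were mixed. The difference was -0.06 ± 0.12 (SE, adjusted p = 0.861, limma). The pair of Ror2 and its ligand Wnt5a thus had differences of -0.06 and 0.02, and in both genes control mouse 5 was the highest array.

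**Figure D2:**
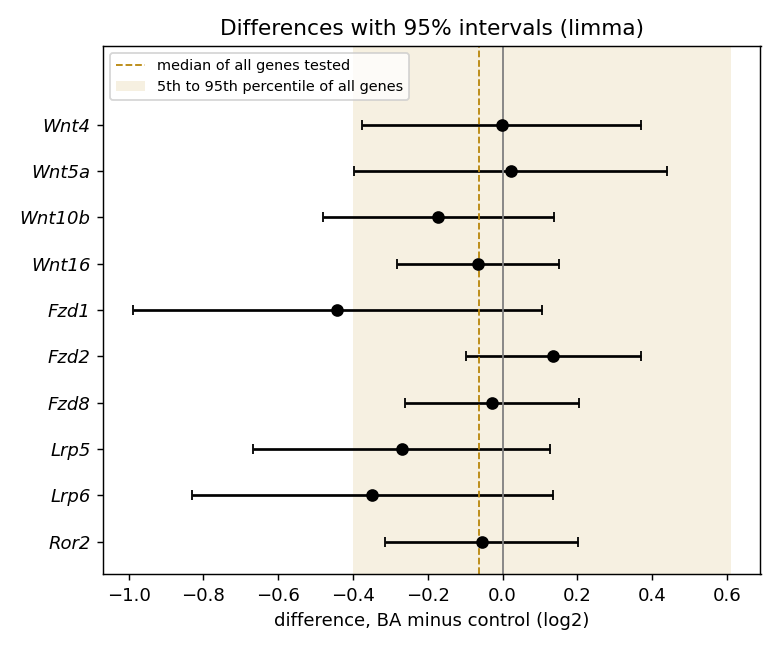
Difference of each gene, BA minus control in log2 units (points), with its 95% interval from limma (bars), beside the median (dashed line) and the 5th to 95th percentile (band, -0.40 to 0.61) of the differences of all genes tested. Every interval crosses 0, and only the Fzd1 point, at -0.44, lies outside the band.

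The intervals bound what 5 mice per group could show. The lowest bound over the 10 genes was that of Fzd1, -0.99, a BA level 1.98-fold lower than in control cells. The highest bound was that of Wnt5a, 0.44, a BA level 1.36-fold higher. For Wnt16, Fzd2, Fzd8 and Ror2 the intervals were the narrowest, and their lower bounds lay between -0.31 and -0.10. These bounds hold gene by gene and not for the 10 together.

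Seen across arrays, no mouse was above or below the mean of all arrays for all 10 genes. BA mouse 5 came nearest, below that mean for 9 genes, the exception being Wnt4, and control mice 1 and 5 were above it for 7 genes each. The median over all genes tested was also lowest in BA mouse 5, at 6.04, and highest in control mouse 5, at 6.17. The part of this offset between arrays in the counts was not tested. Control mouse 5 was the highest control array for 4 of the 10 genes (Wnt5a, Wnt10b, Lrp6 and Ror2) and the lowest for Lrp5. Control mouse 4 was the highest for none. In the BA group, mouse 5 was the lowest array for 4 genes (Wnt10b, Fzd1, Fzd2 and Fzd8) and the highest for none, and mouse 2 was the highest for Wnt4, Wnt16 and Fzd8 and the lowest for Wnt5a, Lrp5 and Lrp6. The mean over the 10 genes ranged from 6.43 to 6.65 in BA and from 6.55 to 6.80 in control cells. The range over mice was wider in control than in BA cells for 8 of the 10 genes, the exceptions being Wnt16 and Fzd2.

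**Figure D3:**
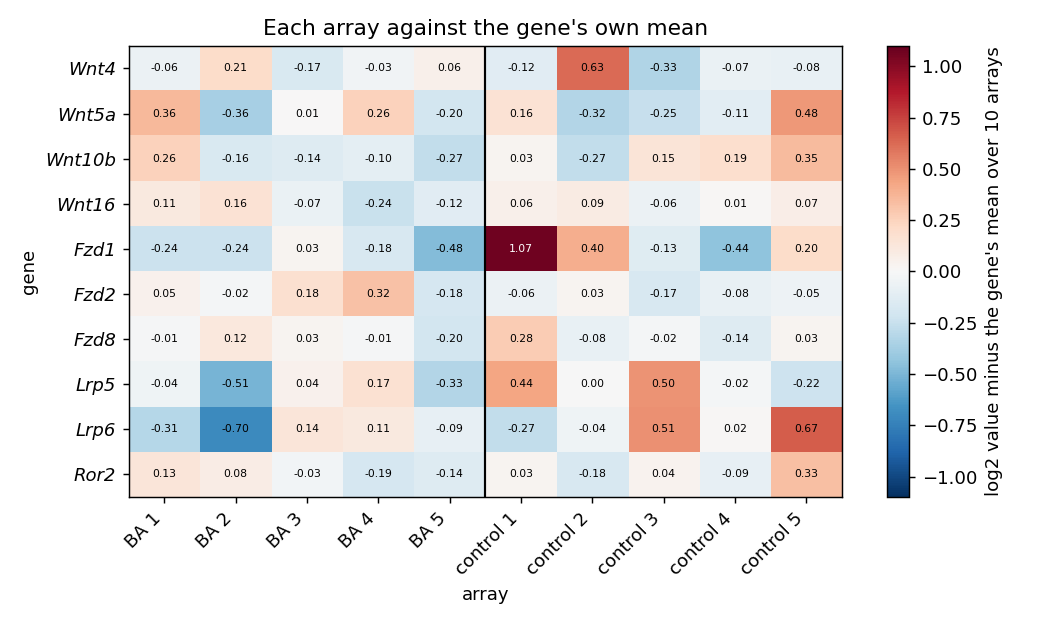
Log2 value of each gene (rows) on each array (columns, BA left of the line, control right) minus the gene's mean over the 10 arrays, with red above and blue below that mean. The cells furthest from 0 are Fzd1 in control mouse 1 at 1.07 and Lrp6 in BA mouse 2 at -0.70, and no column has 1 colour throughout.

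The level of a gene bore on the sign of its difference in the whole table. Among the 9962 genes above the median level 50.3% were lower in BA cells (median difference -0.002), and among the 9976 others 73.9% were (median -0.09). All 6 of the 10 genes in the upper part (Wnt4, Wnt10b, Fzd1, Lrp5, Lrp6 and Ror2) were lower in BA cells, although Wnt4 by only 0.002 and with the sign turned when each array was centred on its median. Of the 4 in the lower part, Wnt16 and Fzd8 were lower and Wnt5a and Fzd2 higher.

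Marker genes place these values among the cells that were sorted. The 7 measured osteoblast markers (Sp7, Alpl, Ibsp, Col1a1, Col1a2, Phex and Dmp1) had mean levels from 8.73 to 9.70 in BA and from 9.28 to 10.1 in control cells, and the 10 cartilage markers from 10.5 to 11.0 in BA and from 10.2 to 10.9 in control cells, so cartilage transcripts were present beside those of bone. Of the 7 osteoblast markers, 5 were lower and 2 higher in BA cells, and 0 passed at an adjusted p below 0.05 (limma). At an unadjusted p below 0.05, 4 were lower (Col1a1, Col1a2, Phex and Dmp1) and 0 higher, against 5.27% and 4.13% of all genes. All BA arrays lay below all control arrays for 1 of them, Col1a2, as for 1.1% of all genes. Runx2, Bglap and Spp1 were not analysed here. The 9 pericyte and smooth muscle markers had mean levels from 6.64 to 7.52 in BA and from 7.57 to 8.38 in control cells, with no overlap of these means. Of the 9 genes, 8 were lower and 1 higher in BA cells. All BA arrays lay below all control arrays for 2 of them, Acta2 and Myh11, as for 1.1% of all genes. The 10 pan-haematopoietic markers ranged from 6.31 to 8.35 in BA and from 5.75 to 6.80 in control cells, with BA mouse 5 at the top, and its Ptprc (CD45) value was 9.29 where the other 9 arrays lay between 5.54 and 5.90. The 9 endothelial markers ranged from 5.44 to 5.67 in BA and from 5.48 to 5.91 in control cells. The blood lineages did not move as one. All 10 neutrophil markers had positive differences, with mean levels from 7.37 to 9.85 in BA and from 6.63 to 8.79 in control cells, and the 7 macrophage markers ranged from 5.61 to 6.72 in BA and from 5.55 to 6.02 in control cells. All 7 measured erythroid markers had negative differences. Their mean levels ran from 5.90 to 6.15 in BA and from 6.25 to 6.86 in control cells, with no overlap of these means. Gene by gene, all BA arrays lay below all control arrays for 2 of the 7, Rhd and Epor, as for 1.1% of all genes. Their differences were -1.25 ± 0.43 and -0.20 ± 0.09 (SE). The 7 measured lymphocyte markers ranged from 5.39 to 5.70 in BA and from 5.41 to 5.88 in control cells, and the 7 skeletal muscle markers from 6.56 to 6.87 in BA and from 6.81 to 7.12 in control cells. BA mouse 5 was the highest array for the pan-haematopoietic, neutrophil and macrophage lists, the lowest for the erythroid list and below control mouse 5 for the lymphocyte list. It was the lowest BA array for 4 of the 10 genes. In a fit with the pan-haematopoietic marker mean as a covariate no member passed (lowest adjusted p = 0.761, limma). That fit adjusted for these markers only, and the part of blood cells in these values was not tested. Without BA mouse 5 no member passed (lowest adjusted p = 0.719, limma), as with all arrays (0.556). This outcome cannot show what that mouse contributed. Of the 10 genes, 7 were lower in BA cells without it and 8 with all arrays.

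The wider pathway gave the same count of calls. Of 108 genes in 10 lists that group the pathway by role, the 10 genes among them, 107 were measured and 0 passed at an adjusted p below 0.05 (lowest 0.384, limma). At an unadjusted p below 0.05 there were 10 genes, or 9.35%, against 9.4% of all genes. Of these, 3 were higher, against 4.13% of all genes, and 7 lower, against 5.27%. The groups were fully apart for 1 pathway gene, Lgr4, with BA above control, as for 0.567% of all genes, and for 0 with BA below, as for 1.1% of all genes.

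**Figure D4:**
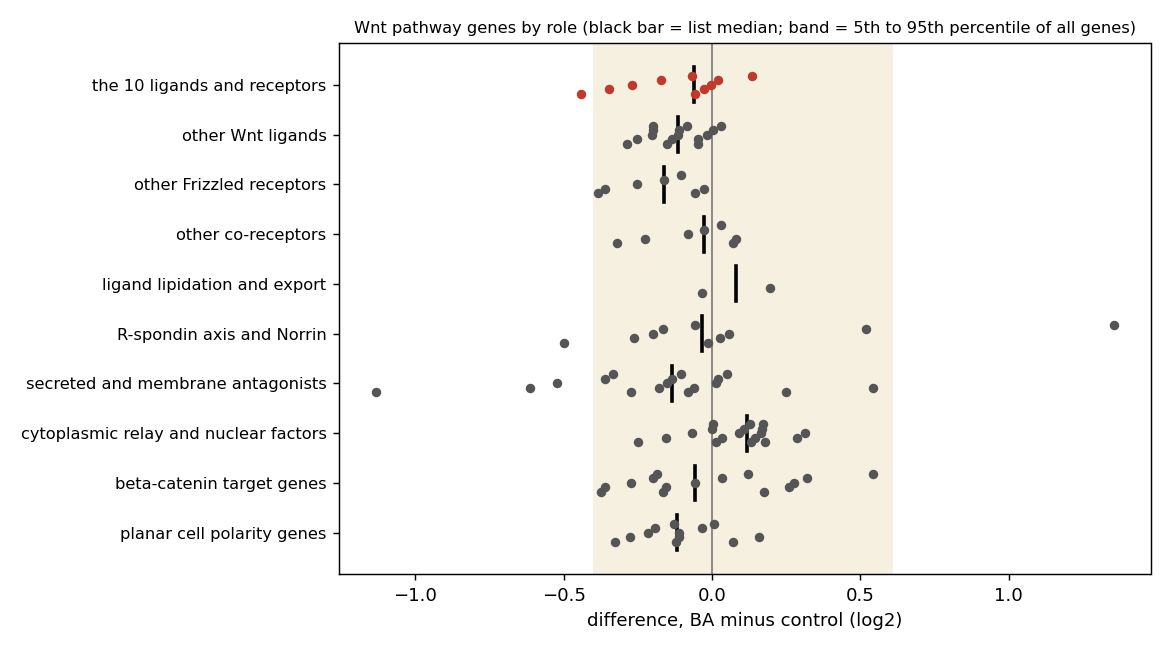
Difference of each pathway gene, BA minus control in log2 units (points), by role, with the list median (black bar) and the 5th to 95th percentile of all genes (band). Most points lie inside the band, with Lgr4 at 1.35 and Sfrp4 at -1.13 furthest outside it.

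Of the other 15 Wnt ligands, 2 were higher and 13 lower in BA cells, with a median difference of -0.11, and none passed. The background for this and the following lists is that 62.1% of all genes were lower. That share was 73.9% among genes not above the median level and 50.3% among those above it. Wnt7b, which promotes osteoblast differentiation in mice, stood at 6.63, 6.50, 6.17, 6.26 and 6.12 in BA and at 6.67, 6.59, 6.68, 6.46 and 6.72 in control mice, a difference of -0.29 ± 0.12 (SE, unadjusted p = 0.0340, adjusted p = 0.507, limma). The differences were -0.25 ± 0.16 for Wnt5b, a cartilage ligand, -0.20 ± 0.12 for Wnt2 and -0.20 ± 0.12 for Wnt8a (SE). Porcn, the enzyme that attaches the lipid to Wnts, differed by -0.03 ± 0.20, and Wls, the carrier that brings them to the cell surface, by 0.20 ± 0.39.

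All 7 other Frizzled genes were lower in BA cells, between -0.38 and -0.03, against 62.1% of all genes. Again none passed the threshold and none had the groups apart. The values were -0.36 ± 0.17 for Fzd7, the nearest relative of Fzd1 and Fzd2, -0.38 ± 0.18 for Fzd3, -0.25 ± 0.14 for Fzd5 and -0.16 ± 0.16 for Fzd10 (SE). Fzd7 was tight in BA mice, from 7.79 to 7.99, and spread from 7.80 to 8.72 in control mice. The mean over these 7 genes ranged from 5.99 to 6.22 in BA and from 6.18 to 6.39 in control cells. Among the 7 other co-receptors 3 were higher and 4 lower, with Lrp4, a relative of Lrp5 and Lrp6 that binds sclerostin, at -0.32 ± 0.20, Adgra2 at -0.23 ± 0.15, Ror1, the relative of Ror2, at 0.07 ± 0.14 and Ryk, a Wnt-binding pseudokinase, at 0.08 ± 0.26 (SE).

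Lgr4, the receptor through which R-spondins keep Frizzled and Lrp6 at the cell surface, was the pathway gene with the smallest p. It stood at 6.96, 6.90, 6.86, 8.50 and 7.57 in BA mice, against 6.38, 5.90, 6.19, 6.37 and 5.18 in control mice. Every BA array lay above every control array. The difference was 1.35 ± 0.35 (SE) and did not pass over all genes (unadjusted p = 0.00269, adjusted p = 0.384, limma). Its relatives Lgr5 and Lgr6 differed by -0.16 ± 0.10 and -0.26 ± 0.13, the ligand Rspo2 by -0.50 ± 0.23, and Rnf43, the ubiquitin ligase that removes Frizzled and that R-spondins inhibit, by -0.20 ± 0.11 (SE). The values of Lgr5 are given although the rule for naming genes did not choose it.

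Downstream, 14 of 18 genes of the cytoplasmic relay and nuclear factors were higher in BA cells, with a median difference of 0.12. None had an unadjusted p below 0.05, and 62.1% of all genes were lower in BA cells. Ctnnb1, the beta-catenin gene, averaged 9.42 ± 0.22 in BA and 9.24 ± 0.37 in control cells (SD, n = 5 each). Apc and Gsk3b, of the complex that destroys beta-catenin, differed by 0.31 ± 0.19 and 0.17 ± 0.16, and the kinase gene Csnk1e by -0.25 ± 0.21 (SE). Of the 15 measured target genes of beta-catenin, 7 were higher and 8 lower, with a median of -0.06. Axin2, the target most used as a readout and named here for that reason, averaged 6.76 ± 0.18 in BA and 6.94 ± 0.11 in control cells (SD, n = 5 each), a difference of -0.18 ± 0.11 (SE, adjusted p = 0.569, limma).

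At an unadjusted p below 0.05, 2 of the 15 targets were higher and 3 lower, where 4.13% of all genes were higher and 5.27% lower, and none of the 5 passed over all genes. The feedback gene Nkd1 differed by -0.37 ± 0.11, the antagonist genes Dkk1 by -0.36 ± 0.13 and Apcdd1 by -0.27 ± 0.12, Notum, an enzyme that strips the lipid from Wnts, by 0.54 ± 0.21, and Nkd2, named after its value was seen, by 0.28 ± 0.12 (SE, adjusted p between 0.459 and 0.518, limma). The targets thus lay on both sides of 0, as did the paralogs Nkd1 and Nkd2. Of the 17 antagonist genes, 5 were higher and 12 lower. At an unadjusted p below 0.05, 1 was higher and 4 lower, against the same shares of all genes, and 3 of these (Dkk1, Apcdd1 and Notum) are also in the target list, so the counts of the lists are not separate. The others were Draxin at -0.33 ± 0.14 and Sfrp4, named after its value was seen, at -1.13 ± 0.50 (SE). Among the 12 planar cell polarity genes, which act in the Wnt5a and Ror2 branch, 3 were higher and 9 lower, with Ankrd6 at -0.33 ± 0.13, Celsr2 at -0.19 ± 0.11, Prickle1 at 0.16 ± 0.11 and Prickle2 at -0.21 ± 0.16 (SE).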

How the data were processed

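Osteoblastic lineage cells of 5 BA and 5 control mice were measured, 1 array per mouse. The authors deposited log2 values, with GCRMA named in the submitters' processing notes. Its version was not stated there. Base 2 follows from GCRMA and from values between 1.21 and 13.7. GCRMA corrects background by probe sequence. Differences among dim probe sets on an array can still be compressed. No depth applies to arrays, and their number limits the precision.

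Of 35557 probe sets, 21789 had 1 gene symbol in the platform annotation. Each gene was represented by its probe set with the highest mean over the 10 arrays, with no filter on dim genes. BA and control were compared across all 19938 genes with limma 3.58.1 in R 4.3.3 (no covariate, two-sided, Benjamini-Hochberg over all genes, threshold 0.05), after the scripts had been tested on simulated data. Lists were described by counts and medians beside all genes. Named pathway genes were, beside the 10, up to 4 per list with the smallest p, both genes of the lipidation and export list, and any with the groups fully apart; exceptions are said to be so. The 10 genes and the lists were chosen with earlier results of these data known. The alternatives are named in the closing section.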

Additional observations from a re-analysis of the deposited data

Results flagged for a closer look

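In 82 groups of 5 arrays, for the 41 genes named by the rule in BA and in control cells, 3 single values stood far from the other 4 of their group by Dixon's criterion, which chance meets in about 1 of 20 groups. Wnt4 in control mouse 2 was 8.31, with the other control arrays between 7.35 and 7.61. Ryk in control mouse 1 was 8.60, with the other control arrays between 7.38 and 7.66. Gsk3b in control mouse 3 was 9.10, with the other control arrays between 8.50 and 8.66.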

How the results depend on the processing

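The 10 genes had 0 calls at an adjusted p below 0.05 in the main setting and in each of 22 alternatives: quantile normalization, the replicate number as a block, each array centred on its median, only genes above the median level (6 of the 10 tested), array weights, a trended and robust eBayes fit, averaging the probe sets of each gene, its most variable probe set, all probe sets adjusted together, covariates for pan-haematopoietic markers and for Xist, each array left out in turn, and BA 5 and control 5 left out together, which was added after the data were seen. At an unadjusted p below 0.05 the count was 0 or 1 with 1 array left out, the 1 being Fzd1 without control replicate 4. With 1 array left out the differences ranged from -0.086 to 0.154 for Wnt4, -0.0645 to 0.144 for Wnt5a, -0.262 to -0.107 for Wnt10b, -0.114 to -0.014 for Wnt16, -0.607 to -0.230 for Fzd1, 0.0735 to 0.199 for Fzd2, -0.0665 to 0.0385 for Fzd8, -0.360 to -0.175 for Lrp5, -0.460 to -0.216 for Lrp6 and -0.108 to 0.020 for Ror2. The sign turned for Wnt4 with each array centred on its median (0.022) and with the mean of its probe sets (0.045), for Fzd8 with the pan-haematopoietic covariate (0.016) and without BA 5 and control 5 (0.023), and for Ror2 without those arrays (0.048). Among the other pathway genes named it turned for Ryk with quantile normalization (-0.028) and, with 1 array left out, ranged from -0.0645 to 0.302 for Ryk, -0.0325 to 0.140 for Ror1, -0.109 to 0.417 for Wls and -0.103 to 0.115 for Porcn. Porcn also turned with array weights (0.062), with the pan-haematopoietic covariate (0.041) and without BA 5 and control 5 (0.218). Lgr4 kept its sign in all 22, between 1.07 and 1.48, with no call. Of 198 list medians under these alternatives 196 moved by less than the spread between mice; with only genes above the median level, that of the other Frizzled receptors became -0.25 and that of the beta-catenin targets 0.12, over fewer genes. Over all genes 1 passed in the main setting, 0 with the replicate block, with only genes above the median level, with the pan-haematopoietic covariate and without BA 5 and control 5, 2 with the Xist covariate, and 0 to 13 with 1 array left out, the 13 without BA replicate 4. The cause of these changes was not tested. The main fit did not pair same-numbered BA and control mice, whose titles give only a replicate number. Their deviations from the group means correlated at -0.0973 to 0.112, and 3 of 10 arrays correlated best with their own number. These values cannot show whether same-numbered mice were processed together. With the block the lowest adjusted p of the 10 genes was 0.605 (limma).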
